A study of Rattus norvegicus with 12 samples.

Results

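Acute phase proteins are plasma proteins that the liver makes in altered amounts during infection and injury. They were followed here through 10 genes, of 14217 with a probe set of their own on the array, and through 12 probe sets, of 31042 left after control probes were set aside. The platform annotation assigned these 12 probe sets to 1 of 10 genes alone, namely Crp, Apcs, Orm1, Hp, Hpx, A2m, Lcn2, Itih3, Itih4 and Cp, and 0 probe sets named one of these genes beside another. Cp had 3 probe sets and every other gene had 1. All 12 had a mean signal above the filter of 19.7 that left 15523 probe sets for testing.

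Liver RNA of 12 rats was hybridised to Affymetrix arrays, 1 array per animal. Germ-free Sprague Dawley rats, which carry no microbes (animals 1, 3 and 4), were set against Sprague Dawley rats labelled normal and called conventional here (animals 6, 7 and 8). Han Wistar rats that drank water with streptomycin and penicillin over 8 days (animals 13, 14 and 15) were set against untreated Han Wistar rats (animals 1, 2 and 3). No genetic modification is named for any group, and the labels used here give no age, sex, diet or housing. Each comparison lay within 1 strain, so a difference between the strains cannot be told apart from any difference in how their animals were handled.

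In the acute phase response, interleukin-6 and interleukin-1 released by macrophages act on hepatocytes, where STAT3, C/EBP factors and NF-kappaB raise transcription of the positive acute phase genes. Glucocorticoids act together with these cytokines. Alpha-2-macroglobulin (A2m) and alpha-1-acid glycoprotein (Orm1) are known as major acute phase proteins of the rat, in which C-reactive protein (Crp) is already plentiful in plasma without inflammation. Microbial products that reach the liver from the gut through the portal vein are one source of such signals, and the study set livers of rats without microbes, and of rats on antibiotics, against their controls.

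Promoter windows of 8 of the 10 genes were found in a RefSeq table of the GRCr8 assembly, each reaching from 250 bases before to 50 bases after the gene start. Letters of 4 cytokine-linked motifs were searched on both strands. The interleukin-6 response element, CTGGGA, was in 4 of the 8 windows (Apcs, Crp, Itih4 and Lcn2) and in 30.3% of 33469 promoters in the table. The STAT motif, TTCNNNGAA, was in 1 of the 8 (Itih4) and in 8.87% of all promoters. The C/EBP motif, TTNNGNAAT, was in 2 of the 8 (Crp and Orm1) and in 12.3% of all promoters. The NF-kappaB motif was in 0 of the 8 and in 1.53% of all promoters. The windows of Cp, Hpx and Itih3 held none of these letters. The 5 windows with a match are shown because they carry the letters that the cytokine pathway is known to use, and capitals mark the matched bases. In Itih4 the STAT match overlaps a match to CTGGGA on the opposite strand, and its first base lies 89 bases before the gene start. In Crp the C/EBP match begins 47 bases before the start. These matches describe the letters and say nothing of which factor binds.
Itih4 (GRCr8, chr16:6086735-6087034, plus strand): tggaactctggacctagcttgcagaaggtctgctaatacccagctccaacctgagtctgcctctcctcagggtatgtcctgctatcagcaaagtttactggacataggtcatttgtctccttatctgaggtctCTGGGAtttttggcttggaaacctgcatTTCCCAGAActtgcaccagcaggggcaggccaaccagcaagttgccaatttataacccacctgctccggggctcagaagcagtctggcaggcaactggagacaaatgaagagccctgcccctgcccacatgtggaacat
Crp (GRCr8, chr13:87693812-87694111, plus strand): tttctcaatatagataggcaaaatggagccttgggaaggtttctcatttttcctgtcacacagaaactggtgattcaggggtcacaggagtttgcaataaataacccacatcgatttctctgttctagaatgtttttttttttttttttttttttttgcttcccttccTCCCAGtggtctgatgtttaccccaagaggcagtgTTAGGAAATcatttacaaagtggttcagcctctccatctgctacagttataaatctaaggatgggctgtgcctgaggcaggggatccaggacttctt
Apcs (GRCr8, chr13:87906459-87906758, minus strand): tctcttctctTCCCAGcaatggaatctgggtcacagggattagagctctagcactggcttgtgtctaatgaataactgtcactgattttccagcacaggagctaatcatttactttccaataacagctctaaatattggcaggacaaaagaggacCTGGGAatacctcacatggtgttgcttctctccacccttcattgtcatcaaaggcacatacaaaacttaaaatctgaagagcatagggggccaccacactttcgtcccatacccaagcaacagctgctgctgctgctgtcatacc
Orm1 (GRCr8, chr5:81788259-81788558, plus strand): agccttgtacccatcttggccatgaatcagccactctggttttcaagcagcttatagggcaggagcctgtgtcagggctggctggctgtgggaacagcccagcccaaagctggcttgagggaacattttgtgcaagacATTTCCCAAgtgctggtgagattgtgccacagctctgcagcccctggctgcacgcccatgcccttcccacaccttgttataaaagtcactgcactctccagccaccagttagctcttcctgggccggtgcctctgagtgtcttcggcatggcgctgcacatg
Lcn2 (GRCr8, chr3:36081731-36082030, minus strand): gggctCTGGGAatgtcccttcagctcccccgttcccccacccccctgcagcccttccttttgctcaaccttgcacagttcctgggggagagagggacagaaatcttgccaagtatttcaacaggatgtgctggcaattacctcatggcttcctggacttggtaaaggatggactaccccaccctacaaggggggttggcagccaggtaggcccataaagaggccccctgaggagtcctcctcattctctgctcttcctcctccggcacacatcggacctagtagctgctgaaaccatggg

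Correlation across probe sets between arrays of the same group was 0.974 to 0.985, and trimmed means of the arrays lay at 100.04 to 100.05. The upper end of the arrays was less even. The 99.9th percentile of signal was 7615 to 8768 in germ-free livers, 6841 to 7427 in conventional livers, 6026 to 7407 in antibiotic-treated livers and 4827 to 5665 in untreated livers. All 8 hepatocyte markers were above the filter, and none of them passed the test in either comparison on the deposited scale. In antibiotic-treated livers 7 of the 8 had an unadjusted p under 0.05, all higher, beside 9.97% of all tested probe sets. Among the 279 probe sets with a mean signal of 3000 or more 59.1% did, all higher. The median log2 fold change of the 8 markers was 0.38, and 0.04 after quantile normalization. In germ-free livers 1 fell under quantile normalization (Fgb) and 1 rose under cyclic loess (Cps1). Of 10 neutrophil markers 6 had a probe set and 1 (S100a9) was above the filter. The 3' to 5' signal ratio of actin, a sign of RNA integrity, was 3.62 to 5.14 in germ-free and 4.50 to 6.17 in conventional livers, against 2.62 to 2.87 in antibiotic-treated and 2.47 to 2.69 in untreated livers. The same ratio of GAPDH differed less, at 1.30 to 1.84 in germ-free and 1.44 to 1.74 in conventional livers. It was 1.337 to 1.495 in antibiotic-treated and 1.26 to 1.40 in untreated livers.

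None of the 12 probe sets passed the test between germ-free and conventional livers, where 12.2% of all tested probe sets passed (limma, Benjamini-Hochberg adjusted p under 0.05). None passed between antibiotic-treated and untreated livers, where 0.0193% of all did. At an unadjusted p under 0.05 stood 1 of 12 in germ-free livers, beside 27.6% of all, and 5 of 12 in antibiotic-treated livers, beside 9.97% of all. Transcript levels are given as linear array signals, and differences as log2 fold changes of signal plus an offset of 16. In whole liver, fewer cells of a type and less RNA per cell cannot be told apart. The plot of signals by animal shows every value.

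**Figure D1:**
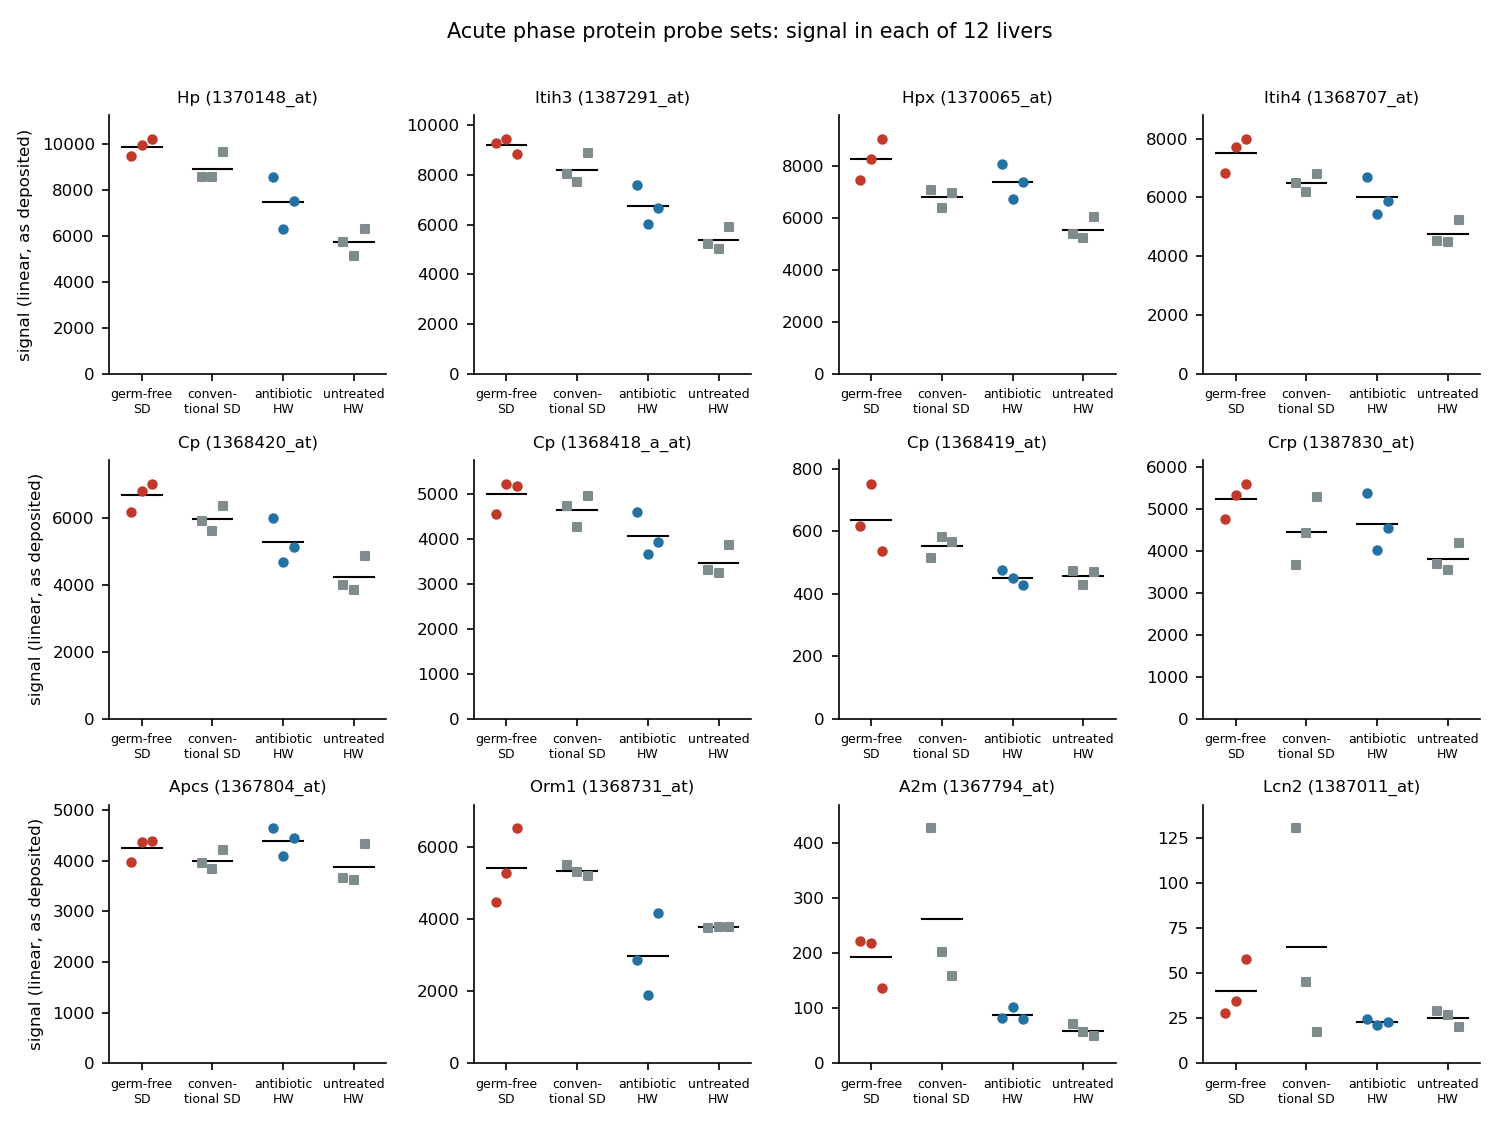
Linear signal as deposited (y axis, from 0) of the 12 acute phase probe sets in germ-free and conventional Sprague Dawley (SD) livers and in antibiotic-treated and untreated Han Wistar (HW) livers. Points are single animals in order of their number, and lines are means of 3 animals. Itih4 and Hpx do not overlap between germ-free and conventional livers, while conventional animal 6 has the highest A2m (426.1) and Lcn2 (130.6) signals of the 12 livers.

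The inter-alpha-trypsin inhibitor heavy chains and A2m were read by 3 probe sets with different patterns. Itih4, a heavy chain of the inter-alpha-trypsin inhibitor family, gave signals of 6827, 7721 and 7998 in germ-free livers, against 6501, 6187 and 6791 in conventional livers. The lowest germ-free value lay just above the highest conventional one. The log2 fold change was 0.21 ± 0.10 (SE, 95% interval -0.01 to 0.42, limma adjusted p = 0.195). In Han Wistar rats Itih4 gave 6705, 5435 and 5887 in antibiotic-treated livers, against 4526, 4476 and 5223 in untreated livers. Again the groups did not overlap, with a log2 fold change of 0.34 ± 0.10 (SE, 95% interval 0.12 to 0.55, limma adjusted p = 0.266).

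Itih3, a heavy chain that is coupled to hyaluronan in the extracellular matrix, gave 9265, 9447 and 8834 in germ-free livers, against 8039, 7696 and 8866 in conventional livers. Germ-free animal 4 lay below conventional animal 8, so the groups overlapped (log2 fold change 0.16 ± 0.10, SE, limma adjusted p = 0.302). It gave 7582, 6033 and 6647 in antibiotic-treated livers, against 5212, 5023 and 5894 in untreated livers, without overlap. That log2 fold change was 0.33 ± 0.10 (SE, 95% interval 0.11 to 0.54, limma adjusted p = 0.269).

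A2m, a broad inhibitor that traps proteases, was far dimmer and far more variable. It gave 221.9, 218.1 and 136.3 in germ-free livers, against 426.1, 201.0 and 157.9 in conventional livers. The groups overlapped, and conventional animal 6 alone lay above all germ-free animals. The log2 fold change was -0.33 ± 0.27 (SE, 95% interval -0.91 to 0.26, limma adjusted p = 0.475), and without that animal it was 0.07. In Han Wistar rats A2m gave 82.9, 101.4 and 79.6 in antibiotic-treated livers, against 71.4, 57.2 and 49.3 in untreated livers. All 3 treated animals lay above all 3 untreated ones, yet the log2 fold change of 0.47 ± 0.27 (SE, 95% interval -0.12 to 1.06) did not pass (limma adjusted p = 0.620). The strains did not overlap for A2m, since every Sprague Dawley liver (136.3 to 426.1) was above every Han Wistar liver (49.3 to 101.4).

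Among the carriers of heme, hemoglobin and copper, haptoglobin (Hp), which captures free hemoglobin, gave 9480, 9974 and 10238 in germ-free livers, against 8567, 8594 and 9659 in conventional livers. These overlapped, with a log2 fold change of 0.15 ± 0.11 (SE, 95% interval -0.09 to 0.39, limma adjusted p = 0.416). Hp gave 8578, 6320 and 7542 in antibiotic-treated livers, against 5722, 5152 and 6305 in untreated livers. Antibiotic animal 14 lay just above the highest untreated animal, and the log2 fold change was 0.38 ± 0.11 (SE, 95% interval 0.14 to 0.62, limma adjusted p = 0.257).

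Hemopexin (Hpx), which binds free heme, had the smallest unadjusted p of the 12 probe sets in both comparisons. It gave 7464, 8280 and 9066 in germ-free livers, against 7093, 6378 and 6987 in conventional livers. The groups did not overlap, and the log2 fold change was 0.27 ± 0.10 (SE, 95% interval 0.06 to 0.49, limma adjusted p = 0.0860). Without germ-free animal 1 that comparison passed (log2 fold change 0.35, limma adjusted p = 0.0445). On leaving out each single animal in turn, the log2 fold change ran from 0.21 to 0.35. The limma adjusted p then reached up to 0.256. In Han Wistar rats it gave 8080, 6739 and 7412 in antibiotic-treated livers, against 5388, 5248 and 6047 in untreated livers. Here too every treated animal lay above every untreated one, with a log2 fold change of 0.41 ± 0.10 (SE, 95% interval 0.20 to 0.62, limma adjusted p = 0.172).

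Ceruloplasmin (Cp), a copper-carrying ferroxidase, was read by 3 probe sets. The brightest averaged 6691 ± 442 in germ-free livers, against 5976 ± 375 in conventional livers (SD, n = 3 each), a log2 fold change of 0.16 ± 0.11 (SE). It averaged 5285 ± 669 in antibiotic-treated livers and 4246 ± 542 in untreated livers (SD, n = 3 each), a log2 fold change of 0.31 ± 0.11 (SE). The second had log2 fold changes of 0.10 ± 0.11 and 0.23 ± 0.11 (SE) in the same order. The dimmest gave 475.3, 448.3 and 426.3 in antibiotic-treated livers, against 472.8, 426.2 and 469.4 in untreated livers. Its log2 fold change there was -0.02 ± 0.12 (SE), and in germ-free livers it was 0.18 ± 0.12 (SE). All 6 Cp comparisons had a limma adjusted p of 0.339 or above.

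The pentraxins, ring-shaped proteins that bind microbes and cell debris, are Crp and serum amyloid P component (Apcs). Crp gave 4758, 5333 and 5612 in germ-free livers, against 3668, 4420 and 5292 in conventional livers. The conventional animals spread widely, and animal 8 reached into the germ-free range (log2 fold change 0.24 ± 0.14, SE, limma adjusted p = 0.269). It gave 5379, 4035 and 4547 in antibiotic-treated livers, against 3702, 3537 and 4203 in untreated livers, also with overlap (log2 fold change 0.28 ± 0.14, SE, limma adjusted p = 0.527). Apcs ranged over 3969 to 4397 in germ-free livers and 3841 to 4206 in conventional livers. Its range was 4103 to 4643 in antibiotic-treated livers and 3616 to 4333 in untreated livers. Its log2 fold changes were 0.09 ± 0.09 in germ-free and 0.19 ± 0.09 in antibiotic-treated livers (SE, limma adjusted p = 0.595 and 0.543).

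The lipocalins, small carriers with a binding pocket, are Orm1 and Lcn2. Orm1, which binds lipids and basic drugs, gave 4489, 5274 and 6527 in germ-free livers, against 5511, 5313 and 5194 in conventional livers. The germ-free animals lay on both sides of the conventional ones, so the log2 fold change was 0.01 ± 0.21 (SE, 95% interval -0.43 to 0.45, limma adjusted p = 0.987). It gave 2869, 1907 and 4162 in antibiotic-treated livers, against 3770, 3784 and 3784 in untreated livers. Animals 13 and 14 were below all untreated animals and animal 15 was above them. The log2 fold change was -0.41 ± 0.21 (SE, 95% interval -0.85 to 0.03, limma adjusted p = 0.535).

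The spread of Orm1 was set beside that of other bright probe sets. Its coefficient of variation was 38.0% in antibiotic-treated and 0.215% in untreated livers, where the median of the 279 probe sets with a mean signal of 3000 or more was 10.6% and 8.22%. Of those 279, 99.3% varied less than Orm1 in antibiotic-treated livers and 0.0% varied less in untreated livers. In Sprague Dawley rats its coefficient was 18.9% in germ-free and 3.00% in conventional livers, beside medians of 7.44% and 7.13%. After quantile normalization the coefficient was 36.3% in antibiotic-treated and 8.14% in untreated livers, so the low spread in untreated livers belongs to the deposited scale. Each coefficient rests on 3 animals.

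Lcn2, an iron-siderophore binding protein that neutrophils and injured epithelia also make, was the dimmest member. It gave 28.1, 34.8 and 57.8 in germ-free livers, against 130.6, 45.2 and 17.5 in conventional livers. Conventional animals 6 and 8 held the highest and the lowest value of all 12 livers. The log2 fold change was -0.29 ± 0.37 (SE, 95% interval -1.09 to 0.51, limma adjusted p = 0.662), and without animal 6 it was 0.28. In Han Wistar rats Lcn2 stayed between 21.4 and 24.9 in antibiotic-treated livers and between 20.0 and 29.3 in untreated livers (log2 fold change -0.08 ± 0.37, SE, limma adjusted p = 0.973). Summed signal of the 6 neutrophil markers was 48.1 to 63.0 in germ-free and 42.3 to 61.3 in conventional livers. It was 55.8 to 108.7 in antibiotic-treated and 37.8 to 58.8 in untreated livers, where S100a9 had a log2 fold change of 0.61 (limma adjusted p = 0.359). Their part in the Lcn2 values was not tested.

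Animal 6 of the conventional group had the highest A2m and Lcn2 and the lowest Crp (3668) among the 6 Sprague Dawley livers. Of 33 other positive acute phase genes with a tested probe set, 2 had their highest Sprague Dawley signal in animal 6, 13 in germ-free animal 4 and 9 in germ-free animal 3. Of the probe sets with a mean signal of 3000 or more, 10.8% had theirs in animal 6, 44.8% in germ-free animal 4 and 22.2% in germ-free animal 3. A2m and Lcn2 lie far below that signal, as do some of the 33 genes. Over all tested probe sets the shares were 19.8% in animal 6, 16.6% in germ-free animal 4 and 20.1% in germ-free animal 3.

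In both strains the means of most bright members stood above their controls, and so did most other bright probe sets. Probe sets with a mean signal of 3000 or more, 9 of the 12 members among 279, had a median log2 fold change of 0.13 in germ-free livers, while the median of all tested probe sets was 0.05. In antibiotic-treated livers the same medians were 0.27 and 0.01. The median over the 12 members was 0.16 in germ-free and 0.30 in antibiotic-treated livers. Of the 279 bright probe sets 59.1% had an unadjusted p under 0.05 in antibiotic-treated livers, all of them higher, and 33.3% did in germ-free livers. The plot of change against signal shows the members beside this shift at the bright end, with Orm1 farthest below it among the bright ones.

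**Figure D2:**
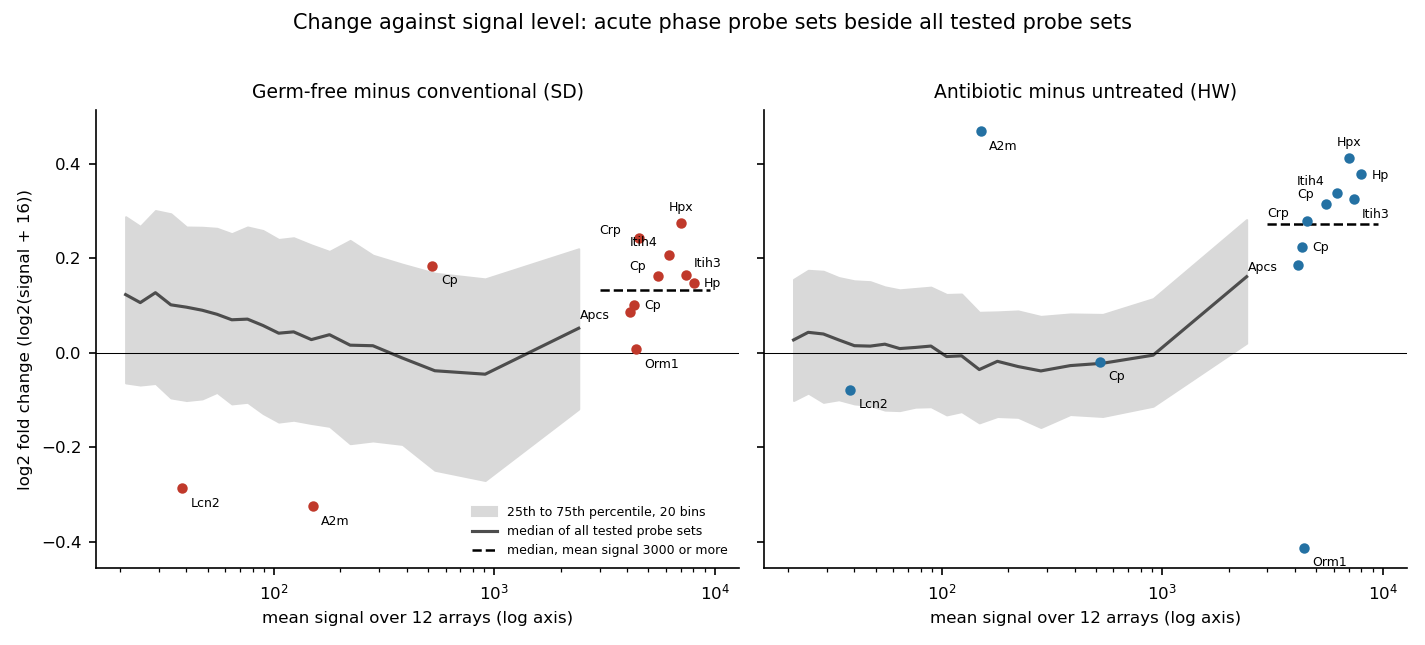
Log2 fold change (y axis) against mean signal over 12 arrays (x axis, log scale) for the 12 acute phase probe sets (points), beside the median and the 25th to 75th percentile of all 15523 tested probe sets in 20 bins. The dashed line is the median of the 279 probe sets with a mean signal of 3000 or more, at 0.13 for germ-free minus conventional and 0.27 for antibiotic minus untreated, and Orm1 lies below it in both panels.

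Groups without overlap were also counted. Between germ-free and conventional livers 2 of 12 members (Itih4 and Hpx) were higher without overlap, beside 16.9% of all tested probe sets, and 0 were lower, beside 12.1%. Between antibiotic-treated and untreated livers 5 of 12 (A2m, Itih3, Itih4, Hp and Hpx) were higher without overlap, beside 9.57% of all and 55.2% of the 279 bright ones. None were lower there, beside 8.78% of all. After quantile normalization 0 members were higher or lower without overlap in germ-free livers. Of all 15523 tested probe sets 13.5% were higher and 2239 were lower there. In antibiotic-treated livers 1 member was higher, beside 8.7% of all, and 2 (Orm1 and Itih3) were lower, beside 1411 of 15523. Itih3 then gave 6910, 6850 and 6786 in antibiotic-treated livers, against 7255, 7082 and 7082 in untreated livers.

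When all arrays were given the same distribution of signals by quantile normalization, most bright members came close to their controls. The median over all 12 probe sets became -0.0003 in germ-free and -0.0036 in antibiotic-treated livers. Hpx then had a log2 fold change of 0.08 in germ-free and 0.01 in antibiotic-treated livers, and Hp had -0.01 and -0.02. Itih4 had -0.015 and -0.005, and its normalised signal spanned 6081 to 6451 over all 12 livers. Orm1 also shifted down in antibiotic-treated livers, from -0.41 as deposited to -0.68, which took it farther from its control. Its normalised signals were 2757, 1992 and 4111 there, against 4718, 4804 and 4124 in untreated livers. All 3 treated animals were then below all untreated ones, although the difference did not pass (limma adjusted p = 0.304). A2m kept values close to those before, at -0.35 in germ-free and 0.46 in antibiotic-treated livers.

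**Figure D3:**
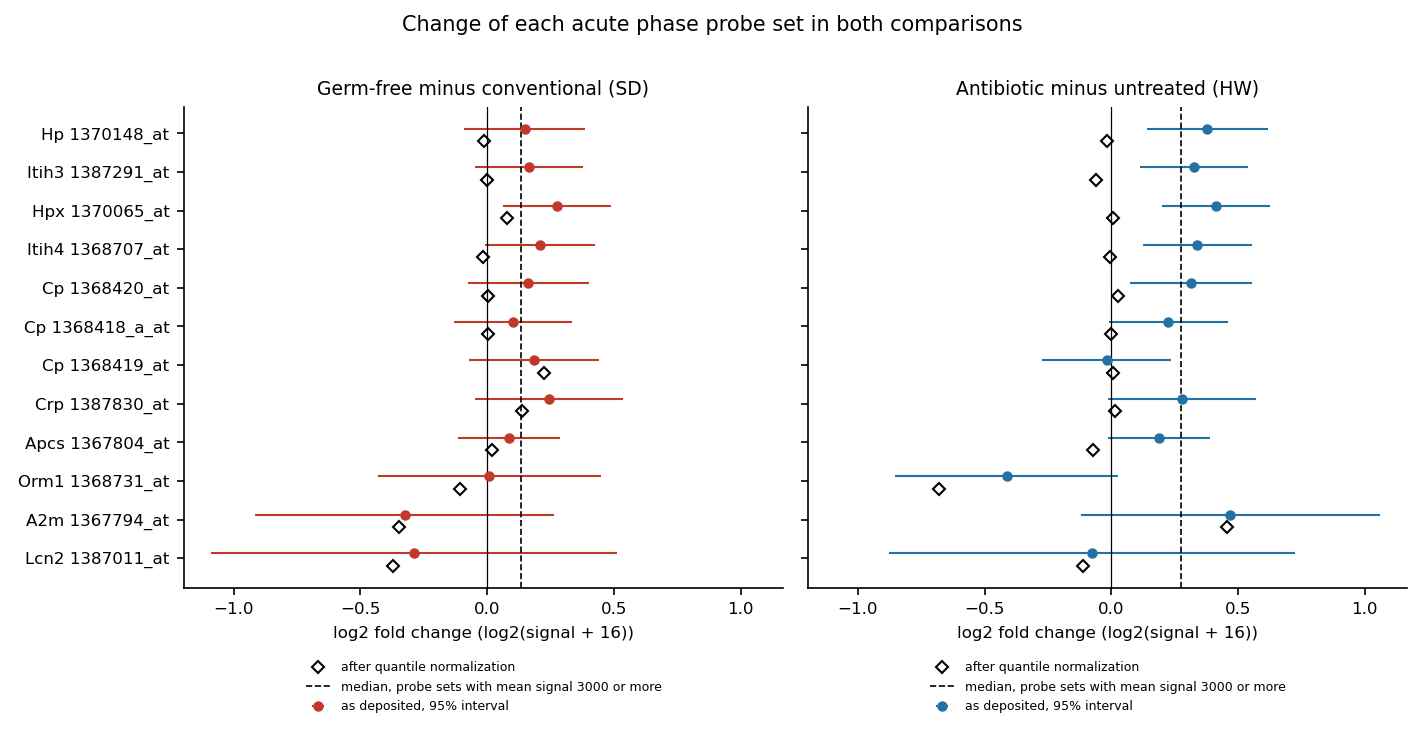
Log2 fold change of each acute phase probe set (x axis) in germ-free minus conventional and antibiotic minus untreated livers, with filled points and bars for the values as deposited and their 95% intervals, and open diamonds after quantile normalization. The dashed line is the median of probe sets with a mean signal of 3000 or more. The diamonds of Hp, Itih4 and both brighter Cp probe sets lie at or beside 0, and that of Orm1 lies at -0.68 in antibiotic-treated livers.

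The difference between the comparisons, germ-free effect minus antibiotic effect, was tested for each probe set. None of the 12 passed, beside 5.03% of all tested probe sets, and 0 had an unadjusted p under 0.05, beside 20.0% of all. A2m came nearest, with -0.80 ± 0.39 (SE, 95% interval -1.63 to 0.04, limma adjusted p = 0.273). Orm1 had 0.42 ± 0.29 (SE, 95% interval -0.20 to 1.04, limma adjusted p = 0.458). The other 10 lay between -0.23 and 0.20. After quantile normalization Orm1 had a difference of 0.57 (limma adjusted p = 0.243).

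On the deposited scale the order of group means was germ-free, conventional, antibiotic-treated, untreated from high to low for Hp, Itih3, Itih4 and 2 of the Cp probe sets. Neighbours in that order overlapped for Hp except antibiotic-treated and untreated livers. For Itih3 conventional and antibiotic-treated livers did not overlap either. Hpx and Crp had germ-free, antibiotic-treated, conventional, untreated, and Apcs had antibiotic-treated livers first and untreated livers last. Orm1 ran germ-free, conventional, untreated, antibiotic-treated, with overlap between neighbours except conventional and untreated livers. Lcn2 ran conventional, germ-free, untreated, antibiotic-treated, and all its neighbours overlapped. The order of Hp, Itih3 and Itih4 was also that of the upper percentile of the arrays given above. In that order of groups the percentile was 7615 to 8768, 6841 to 7427, 6026 to 7407 and 4827 to 5665. Among the 8 hepatocyte markers Alb, Apob, Apoa1, Ttr, Cps1 and Cyp2e1 had this order too, while Fgb and Asgr1 did not. The order was thus not particular to the acute phase members, and its cause was not tested.

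Over the 12 arrays each member was also compared with other genes. Pearson's r of log2 values was 0.996 between Itih4 and Pzp, 0.994 between Itih4 and Plg, the plasminogen gene, and 0.994 between Cp and C3, the central complement component. Cp was then nearest to Mgst1 (0.992), a microsomal glutathione transferase, which also led for Hp (0.993, then COX2 at 0.987) and Itih3 (0.986, then Apoc3 at 0.985). Hpx was most like the apolipoproteins Apoa2 (0.980) and Apoc2 (0.977). These points share the arrays and their uneven upper ends. Crp was most like Bhmt2 (0.968) and Cyp2c11 (0.946), and Apcs most like Itm2b (0.930) and F2, the prothrombin gene (0.901). Orm1 was most like Dpp8 (0.956) and Vmac (0.937), A2m like Serpinb1a (0.934) and Mdm4 (0.93), and Lcn2 like Nf2 (0.889) and Klhdc8a (0.883). These are the 2 highest of 9299 genes compared for each member, so the search itself picks high values.

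The wider acute phase programme was read from lists of other genes, each by its brightest probe set. Of 33 tested positive acute phase genes beside the members, 3 rose, 1 fell and 29 did not pass in germ-free livers. Of all tested probe sets a similar 12.2% passed there. The median log2 fold change of the 33 was 0.20. Cd14, a coreceptor for lipopolysaccharide, gave 597.4, 480.2 and 260.1 in germ-free livers, against 832.0, 1117 and 1303 in conventional livers. It fell by 1.31 ± 0.24 on the log2 scale (SE, limma adjusted p = 0.00306). Lrg1, a leucine-rich plasma glycoprotein, averaged 98.4 in germ-free and 54.3 in conventional livers, a rise of 0.71 ± 0.17 (SE, limma adjusted p = 0.0156). That call was lost without germ-free animal 3 (limma adjusted p = 0.0775) or conventional animal 8 (limma adjusted p = 0.0583), and with the actin ratio as a covariate (limma adjusted p = 0.0735).

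Serping1, the C1 inhibitor of complement, averaged 5744 in germ-free and 4250 in conventional livers, a rise of 0.42 ± 0.12 (SE, limma adjusted p = 0.0385). Serpina3n, a serine protease inhibitor, averaged 6831 in germ-free and 5314 in conventional livers, a rise of 0.36 ± 0.11 (SE, limma adjusted p = 0.0391). Both lie at the bright end. The Serpina3n call was lost under quantile normalization (0.18, adjusted p = 0.116), and without any one of germ-free animals 3 and 4, conventional animals 6 and 7, untreated animals 1 and 2 and antibiotic animal 15 (limma adjusted p of 0.0516 to 0.152). The Serping1 call was lost without any one of germ-free animals 3 and 4, conventional animals 6, 7 and 8 and untreated animal 2 (limma adjusted p of 0.0524 to 0.154). With the actin ratio as a covariate the adjusted p was 0.278 for Serping1 and 0.116 for Serpina3n. Both calls were also lost with no filter, median centring, each comparison's own 6 arrays or no trend (limma adjusted p of 0.0515 to 0.123). Quantile normalization gave 2 that rose and 2 that fell in this list, with Fgb, the fibrinogen beta chain, among those that fell. In antibiotic-treated livers 0 of the 33 passed, with a median of 0.17 as deposited. That median was -0.02 after quantile normalization and 0.04 after cyclic loess. The smallest p as deposited was that of Plg (log2 fold change 0.36, limma adjusted p = 0.181) and then Serpina1, alpha-1-antitrypsin (0.42, limma adjusted p = 0.206).

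Negative acute phase genes, which the liver lowers in inflammation, showed 1 rise and 1 fall among 13 in germ-free livers (median 0.19). Of all tested probe sets 12.2% passed there. Serpina7, thyroxine-binding globulin, gave 101.7, 53.5 and 40.2 in germ-free livers, against 136.0, 116.0 and 138.8 in conventional livers. It fell by 0.92 ± 0.24 on the log2 scale (SE, limma adjusted p = 0.0224). The call was lost without any one of germ-free animals 3 and 4 and conventional animals 6 and 8, with a limma adjusted p of 0.0574 to 0.0955. With the actin ratio as a covariate the adjusted p was 0.156. In Han Wistar rats it gave 317.9, 281.5 and 280.6 in antibiotic-treated livers, against 95.6, 101.2 and 173.9 in untreated livers. All 3 treated animals lay well above the untreated ones, with a log2 fold change of 1.19 that did not pass (limma adjusted p = 0.150). Apoa4, a lipoprotein component, averaged 4234 in germ-free and 3437 in conventional livers, a rise of 0.30 ± 0.09 (SE, limma adjusted p = 0.0462) that was lost under quantile normalization (adjusted p = 0.0864). The Apoa4 call was also lost without any one of germ-free animals 3 and 4, conventional animals 7 and 8, antibiotic animals 13 and 15 and untreated animals 1, 2 and 3 (limma adjusted p of 0.0522 to 0.159), and with the actin ratio (0.303), cyclic loess (0.0626), median centring, own 6 arrays, no filter or no trend. Under quantile normalization the list showed 0 rises and 2 falls, with a median of 0.01. None of the 13 passed in antibiotic-treated livers (median 0.41), where Gc, the vitamin D binding protein, had 0.44 (limma adjusted p = 0.168). That median stood beside 0.27 for the 279 probe sets with a mean signal of 3000 or more. It was 0.05 after quantile normalization and 0.15 after cyclic loess.

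Of 24 tested signals and regulators of the response, 2 rose, 2 fell and 20 did not pass in germ-free livers, with a median of 0.02. Of all tested probe sets 12.2% passed there. Il6r, the interleukin-6 receptor subunit that binds the cytokine, gave 546.4, 548.6 and 633.7 in germ-free livers, against 217.8, 376.2 and 349.1 in conventional livers. It rose by 0.87 ± 0.20 on the log2 scale (SE, limma adjusted p = 0.0110). Nr3c1, the glucocorticoid receptor, gave 481.3, 700.7 and 491.5 in germ-free livers, against 319.1, 277.5 and 264.0 in conventional livers. It rose by 0.91 ± 0.14 (SE, limma adjusted p = 0.00103), while its second probe set had 0.43 and did not pass (limma adjusted p = 0.0703).

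Creb3l3, a liver transcription factor that is released by cleavage from the endoplasmic reticulum and is known to drive Crp and Apcs in mouse, gave 2164, 1793 and 1752 in germ-free livers, against 3224, 2885 and 3148 in conventional livers. It fell by 0.70 ± 0.11 on the log2 scale (SE, limma adjusted p = 0.00101). Crp and Apcs gave the values above, 0.24 ± 0.14 and 0.09 ± 0.09 (SE), neither of which passed. Any link between the Creb3l3 fall and these values was not tested. Cebpd, an inflammation-induced C/EBP factor, gave 17.2, 16.9 and 21.3 in germ-free livers, against 48.1, 43.2 and 24.8 in conventional livers. It fell by 0.64 ± 0.19 (SE, limma adjusted p = 0.0386) at signals close to the filter. That call was lost without any one of germ-free animals 1, 3 and 4 and conventional animals 6 and 7 (limma adjusted p of 0.0616 to 0.120). It was also lost with the actin ratio (adjusted p = 0.117), an offset of 64, no filter or own 6 arrays.

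**Figure D4:**
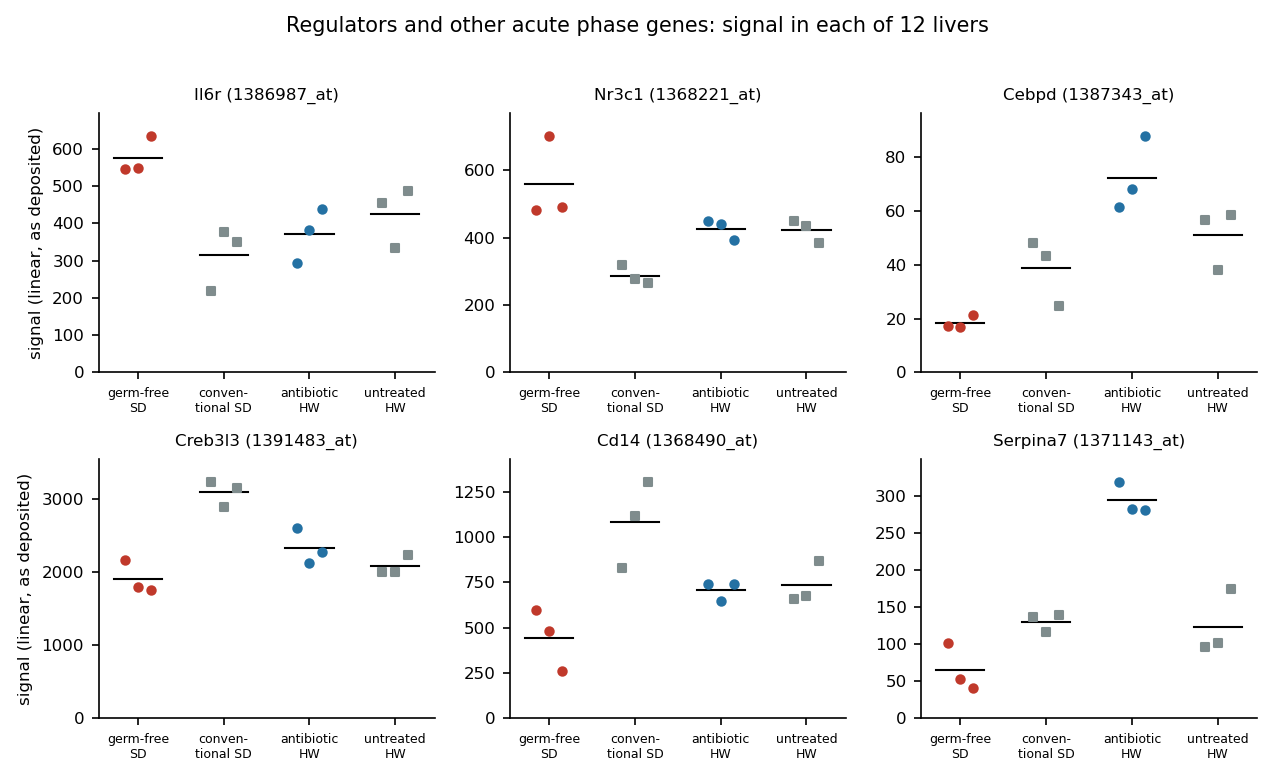
Linear signal as deposited (y axis, from 0) of 4 regulators (Il6r, Nr3c1, Cebpd, Creb3l3) and of Cd14 and Serpina7 in germ-free and conventional Sprague Dawley (SD) livers and antibiotic-treated and untreated Han Wistar (HW) livers. Points are animals and lines are means of 3. All 6 genes were picked from those that passed the test in germ-free livers, so the separation of these groups adds no support. Il6r and Nr3c1 are higher and the other 4 lower in germ-free livers without overlap, beside 16.9% and 12.1% of all tested probe sets.

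Other regulators did not pass in germ-free livers, among them Stat3 (-0.35), the signal-transducing subunit Il6st (-0.08), the feedback inhibitor Socs3 (0.23) and Cebpb (-0.03), given as log2 fold changes. In antibiotic-treated livers 0 of the 24 passed, with a median of 0.06. The smallest p values there were those of Lepr, the leptin receptor (log2 fold change 0.48, limma adjusted p = 0.432), and Stat5b (0.33, limma adjusted p = 0.488). Il6r had -0.19, Nr3c1 0.01, Cebpd 0.40 and Creb3l3 0.16 in antibiotic-treated livers.

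Receptors and handlers of what the acute phase proteins carry gave 1 rise among 10 in germ-free livers (median 0.07). Of all tested probe sets 12.2% passed there. Fcgr2b, an immunoglobulin receptor that also binds pentraxins and that liver sinusoidal endothelium carries, gave 559.4, 513.2 and 360.8 in germ-free livers, against 121.8, 183.4 and 169.2 in conventional livers. It rose by 1.498 ± 0.22 on the log2 scale (SE, limma adjusted p = 0.000880). Endothelial markers moved with it, since 5 of 7 rose (Stab2, Tek, Emcn, Kdr and Lyve1), beside the same 12.2% of all. Summed signal of the 7 was 1325 to 1837 in germ-free and 713 to 899 in conventional livers. Kdr no longer passed when germ-free animal 1 or 3, or any conventional animal, was left out (limma adjusted p of 0.0578 to 0.129), with the actin ratio (0.101) or with no filter (0.0659). Of 8 macrophage markers 1 fell as Cd14 did, again beside 12.2% of all, namely Clec4f, a Kupffer cell lectin (-0.64, limma adjusted p = 0.0288). The call of Clec4f was lost without any one of germ-free animals 1 and 4 and conventional animals 7 and 8 (limma adjusted p of 0.0520 to 0.118), with the actin ratio (0.173) and with no filter (0.0508). Summed macrophage signal was 1713 to 2253 in germ-free and 2117 to 2922 in conventional livers. The part of these cell types in the values of Fcgr2b and Cd14 was not tested. Cd163, which takes up haptoglobin bound to hemoglobin, had -0.27 (limma adjusted p = 0.334), and Lrp1, which takes up hemopexin bound to heme and A2m bound to proteases, had 0.09 (limma adjusted p = 0.706). In antibiotic-treated livers 0 of the 10 passed (median 0.27), and the smallest p was that of Fcgr3a (0.72, limma adjusted p = 0.359), then Slc22a17, a receptor for Lcn2 (-0.32, limma adjusted p = 0.530). All 8 macrophage markers were above 0 there (median 0.53). At an unadjusted p under 0.05 stood 6 of the 8, beside 9.97% of all tested probe sets, and 0 passed. Summed signal of the 8 was 1929 to 2876 in antibiotic-treated and 1383 to 1977 in untreated livers. The part of macrophages in the Fcgr3a value was not tested.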

How the data were processed

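Per the submitters' processing notes the authors used MAS5 (version not stated in these sources). Their deposited values are linear signal intensities, 1 for each of 31099 probe sets on every array. Per the labels' protocols, Qiagen columns were used for extraction, and labelling with biotin started from 5 ug of RNA. Those protocols describe a 10X antibiotic stock (30 mL into 270 mL of water) and name streptomycin (4 mg/ml) beside penicillin (2 mg/ml), without settling whether stock or water is meant. Genes come from GEO's platform annotation, with symbols updated to RefSeq by gene identifier.

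After 57 control probe sets were removed, those whose signal averaged at least the median of 19.7 were tested. All 12 arrays were fitted together as log2(signal + 16) with 1 mean per group, by lmFit and eBayes with an intensity trend in limma 3.58.1 (R 4.3.3). Two-sided p-values, adjusted by Benjamini-Hochberg over 15523 probe sets, passed under a threshold of 0.05. There were 8 residual and 5.96 prior degrees of freedom, and the number of arrays limits precision (median SE of a log2 fold change 0.152). The script was tested on simulated data.

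The members, lists, motifs and tests were chosen with earlier results of these data known. Named genes are every member, up to 6 passing genes of each list per comparison or otherwise the 2 with the smallest p, and the 2 genes most like each member. Stat3, Il6st, Socs3, Cebpb, Fgb, Cd163 and Lrp1 were named with their values in view. The fit was repeated with an offset of 1 or 64, without the filter or with it at the 75th percentile, after quantile normalization or median centring, on each comparison's own 6 arrays, without the trend, with a robust prior, with 1 probe set per gene and without each animal in turn. Cyclic loess and a covariate for the actin ratio were added after seeing the data.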

Additional observations from a re-analysis of the deposited data

Results flagged for a closer look

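For 7 of 111 tested genes of the acute phase and marker lists (6.31%) the germ-free effect differed from the antibiotic effect by the test of the difference itself (limma, Benjamini-Hochberg adjusted), beside a similar 5.03% of all tested probe sets. Strain, and any separate handling of the strains, cannot be told apart from this difference, and none of the 12 member probe sets was among them.

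Serpina7 had a difference of -2.11 (limma adjusted p = 0.00357), from -0.92 in germ-free and 1.19 in antibiotic-treated livers. Creb3l3 had a difference of -0.86 (limma adjusted p = 0.00559), from -0.70 and 0.16. These 2 calls held under every alternative run that gives a value for the difference. Clec4f had a difference of -1.20 (limma adjusted p = 0.0138), lost with the actin ratio as a covariate (adjusted p = 0.0721). Nr3c1 had a difference of 0.89 (limma adjusted p = 0.02004), while its second probe set had 0.19 (limma adjusted p = 0.654). The call was lost with the actin ratio (adjusted p = 0.114) and, barely, without untreated animal 1 (adjusted p = 0.0512), untreated animal 2 (adjusted p = 0.0529) or antibiotic animal 15 (adjusted p = 0.0501).

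Cebpd had a difference of -1.04 (limma adjusted p = 0.0384), Il6r of 1.06 (limma adjusted p = 0.0444) and Cd14 of -1.26 (limma adjusted p = 0.0454). The Cebpd call was lost without any one of germ-free animals 1, 3 and 4, conventional animals 6 and 7, antibiotic animals 14 and 15 and untreated animals 1 and 2, with a limma adjusted p of up to 0.0962, and also with the actin ratio (0.0910) and no filter (0.0871). The Il6r call was lost without any one of germ-free animals 1, 3 and 4, conventional animal 6, antibiotic animals 13 and 14 and untreated animals 1 and 3, with a limma adjusted p of up to 0.0991, and also with no filter (0.0830), median centring (0.0659) and no trend (0.0601). The Cd14 call was lost without any one of germ-free animals 3 and 4, conventional animals 7 and 8, antibiotic animals 13, 14 and 15 and untreated animals 1 and 2, with a limma adjusted p of up to 0.101. It was also lost with the actin ratio (adjusted p = 0.196), no filter (0.0880), no trend (0.0610), a robust prior (0.0684), an offset of 1 (0.0501) and cyclic loess (0.0522).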

How the results depend on the processing

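No paired analysis was possible because the compared groups share no animal numbers. The count of members that passed stayed at 0 under the alternatives run, except that 1 (Hpx) passed in germ-free livers under cyclic loess (0.19, limma adjusted p = 0.0336), and on leaving out single animals it ran from 0 to 1. Counts over all probe sets moved more. For germ-free livers 1226 passed with 1 probe set per gene and 876 with the actin ratio, and 1006 to 2028 on leaving out single animals, beside 1901. For antibiotic-treated livers 1 passed with the 75th percentile filter and 1 with the own 6 arrays, and 1 to 9 on leaving out single animals, beside 3. For the difference 496 passed without a filter and 365 with the actin ratio, and 435 to 850 on leaving out single animals, beside 781.

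Directions of some members turned (log2 scale, Cp by its brightest, second and dimmest probe set). In antibiotic-treated livers this included Hp, Itih4 and Itih3, whose values as deposited were 0.38, 0.34 and 0.33. Quantile normalization turned germ-free values of Itih4 (-0.0147), Orm1 (-0.1059), Hp (-0.0121) and Itih3 (-0.0019), and antibiotic values of Apcs (-0.0702), the second Cp (-0.0022), the dimmest Cp (0.0062), Itih4 (-0.0050), Hp (-0.0169) and Itih3 (-0.0599). It turned differences of Apcs (0.0900), the second Cp (0.0064), Hpx (0.0712), Hp (0.0049), Itih3 (0.0580) and Crp (0.1217). Cyclic loess turned germ-free Orm1 (-0.0439), antibiotic Apcs (-0.0144) and the dimmest Cp (0.0110), and differences of Apcs (0.0495), the second Cp (0.0302), the brightest Cp (0.0176), Itih4 (0.0469), Hpx (0.0489), Itih3 (0.0284) and Crp (0.1198). Median centring turned germ-free Orm1 (-0.0455). The actin ratio turned germ-free Orm1 (-0.0188), antibiotic Lcn2 (0.0123) and the Crp difference (0.0167). The cause was not tested.

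On leaving out single animals, germ-free values ran from -0.6029 to 0.0702 for A2m, -0.7873 to 0.2776 for Lcn2 and -0.1332 to 0.1361 for Orm1. Differences ran from -0.7094 to 0.3554 for Lcn2 and -0.1694 to 0.0939 for Crp, and the antibiotic value of the dimmest Cp from -0.0653 to 0.0181. The highest A2m and Lcn2 values came without conventional animal 6. The 75th percentile filter leaves Lcn2 untested, and own 6 arrays give no difference. With 3 animals a group, the intervals of A2m, Lcn2 and Orm1 are wide.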
